A study of Mus musculus with 5 samples.

Results

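The enzymes that turn lanosterol into cholesterol were followed in mouse embryonic fibroblasts without Dicer, in which TARBP2 was depleted with small interfering RNA (siRNA). The 8 genes Cyp51, Tm7sf2, Msmo1, Nsdhl, Hsd17b7, Ebp, Sc5d and Dhcr7 were taken, of 16593 named genes, by the gene symbol of the array platform. They had 11 of the 25697 probes on the array, 4 of them for Nsdhl and 1 for each other gene. Of these genes 7, with 10 probes, were above background (detection p under 0.05 on at least 2 arrays), and Tm7sf2 was not. The knockdown group held 1 array with siTARBP2-1 and 1 with siTARBP2-2, and the control group held siControl-1, siControl-2 and siControl-3. All 5 samples were the same C57BL/6 fibroblast line, transfected with a lipid reagent in medium with serum, with RNA taken 48 hours later. The Dicer loss is thus shared by the controls, each TARBP2 siRNA was seen on 1 array, and the sources used here do not say whether the control arrays are separate cultures or different siRNAs.

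Cholesterol is made in the endoplasmic reticulum, where the product of the mevalonate branch, lanosterol, loses methyl groups and has its double bonds moved and reduced. Cyp51, a cytochrome P450, removes the first of the methyl groups, and a sterol reductase encoded by Tm7sf2 or Lbr reduces the double bond that this leaves. Msmo1, Nsdhl and Hsd17b7 act in turn on the remaining methyl groups as oxidase, dehydrogenase and ketoreductase. Ebp then shifts a ring double bond, Sc5d adds another, and Dhcr7 reduces one in the last ring step. In mammalian cells the genes of this pathway are known targets of the sterol-sensing transcription factor SREBP2, which acts on promoters together with NF-Y, a factor that binds CCAAT boxes, and Sp1, which binds GC boxes.

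The promoters of 5 members are shown because these genes cover the range of the responses below: Cyp51, Hsd17b7 and Sc5d fell with siTARBP2-2, Dhcr7 was close to the threshold, and Ebp was the member with the smallest change over both siRNAs of the 7 tested. Each line gives the 180 bases before an annotated start of the gene, from RefSeq promoters of build GRCm38.p6, 5′ to 3′ on the strand of the gene. The stretches are chr5:4104698-4104877 (minus strand) for Cyp51, chr1:169969206-169969385 (minus) for Hsd17b7, chrX:8193513-8193692 (minus) for Ebp, chr9:42264301-42264480 (minus) for Sc5d and chr7:143830034-143830213 (plus) for Dhcr7, which has 3 annotated starts. Of the 3 Dhcr7 windows, only the one that holds CCAAT is shown. Capitals mark CCAAT or its reverse complement ATTGG.
Cyp51: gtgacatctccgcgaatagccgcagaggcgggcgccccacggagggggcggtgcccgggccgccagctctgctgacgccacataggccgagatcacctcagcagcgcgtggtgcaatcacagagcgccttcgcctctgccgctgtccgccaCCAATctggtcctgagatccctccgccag
Hsd17b7: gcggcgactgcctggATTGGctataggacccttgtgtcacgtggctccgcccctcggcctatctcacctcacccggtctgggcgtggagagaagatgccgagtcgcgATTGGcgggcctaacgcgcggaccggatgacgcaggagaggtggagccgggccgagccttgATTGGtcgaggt
Ebp: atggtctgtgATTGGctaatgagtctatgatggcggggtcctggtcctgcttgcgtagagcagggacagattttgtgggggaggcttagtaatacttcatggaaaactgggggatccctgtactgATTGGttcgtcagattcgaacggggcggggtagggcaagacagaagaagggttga
Sc5d: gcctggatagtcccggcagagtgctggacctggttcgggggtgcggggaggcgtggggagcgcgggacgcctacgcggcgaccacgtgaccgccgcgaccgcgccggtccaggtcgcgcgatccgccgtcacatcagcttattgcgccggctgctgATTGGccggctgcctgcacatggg
Dhcr7: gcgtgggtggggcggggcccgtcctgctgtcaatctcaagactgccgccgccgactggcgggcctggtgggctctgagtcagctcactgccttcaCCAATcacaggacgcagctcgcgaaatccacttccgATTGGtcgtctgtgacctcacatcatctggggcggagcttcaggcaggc
All 8 members had a RefSeq promoter, 10 windows in all. In the 250 bases before the start, CCAAT was found on either strand in 8 of the 10 member windows, against 33.8% of the 32851 windows of all genes. Each of the 8 genes had it in at least 1 window, and the windows without it were the Dhcr7 windows not shown. The GC box CCGCCC was found in 9 of the 10, against 32.7% of all windows, and none of the CCAAT matches of members overlapped it (0 matches). The string TCACNCCAC, used here for the sterol regulatory element core, was found in 0 of the 10 and in 1.05% of all windows. With so low a share its absence from 10 windows says little about the members, and other forms of the element were not searched. These matches describe letters in fixed windows and not sites in use.

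Signals were set on a log2 scale after background correction and quantile normalization, and each probe has its own scale, so levels were compared between arrays and not between genes. Changes are siRNA minus control in log2 units, tested with limma and adjusted by Benjamini-Hochberg over all 13123 probes above background. Array medians of the raw signal were 79.0 to 81.9, and 12445 to 13051 probes an array were detected. Tarbp2 itself had 7.67 with siTARBP2-1 and 7.18 with siTARBP2-2, against 9.50, 9.55 and 9.36 on the control arrays (log2 signal; -2.05 over both siRNAs, limma, adjusted p = 0.0412, a call that ended without any 1 of the control arrays). It was also called with siTARBP2-1 (-1.80, 28.7% of control; limma, adjusted p = 0.0012) and with siTARBP2-2 (-2.29, 20.4%; adjusted p = 0.00129). These calls of each siRNA held without any 1 of the control arrays. With the mean of all kept probes, Tarbp2 had -1.94 over both siRNAs and did not pass (limma, adjusted p = 0.0656). It was still called with each siRNA (-1.61 and -2.28). Between siTARBP2-1 and siTARBP2-2, Tarbp2 differed by 0.49 (limma, adjusted p = 0.103), and by 0.67 with that mean (adjusted p = 0.0271). Of the fibroblast markers on the array 5 of 7 were above background, against 0 of 3 leukocyte, 0 of 4 endothelial and 0 of 3 hepatocyte markers. The epithelial markers on the array were above background in 4 of 4 cases, Krt18 and Krt19 on all 5 arrays and Cdh1 and Krt8 on 2 each. With either siRNA 0 of them passed the limma test. At an unadjusted p under 0.05, 1 was lower with siTARBP2-1, where 12.3% of all genes were. With siTARBP2-2 there was 1 higher, where 2046 of all 8927 genes had such a p in either direction. The higher one, Krt18, had 1.08 with siTARBP2-2, just short of the threshold (limma, adjusted p = 0.0502), and 0.10 with siTARBP2-1. The lower one, Cdh1, had -0.27 with siTARBP2-1 and -0.21 with siTARBP2-2. Of the 5 fibroblast markers, 3 were called lower with siTARBP2-1 and 1 with siTARBP2-2, where 3.78% and 2.52% of all genes were, with medians of -0.59 and -0.01. Col1a1, a chain of type I collagen, had 10.14 and 10.25 with siTARBP2-1 and siTARBP2-2, against 10.84, 10.83 and 10.73 on the control arrays. It was below every control array on both and was called with both (-0.66 and -0.55; limma, adjusted p = 0.0214 and 0.0491). Col3a1, the chain of type III collagen, fell by 0.59 with siTARBP2-1 (limma, adjusted p = 0.0245) and had 0.13 with siTARBP2-2 (adjusted p = 0.52). Pdgfra, a growth factor receptor of fibroblasts, fell by 0.79 with siTARBP2-1 (limma, adjusted p = 0.0211) and had 0.32 with siTARBP2-2 (adjusted p = 0.23). The other 2 measured markers did not fall. Col1a2, the other chain of type I collagen, had -0.04 with siTARBP2-1 and -0.01 with siTARBP2-2. Vim had 0.12 and -0.03, and neither gene was called with either siRNA. The part of these markers in the results below was not tested.

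With siTARBP2-2 the lanosterol to cholesterol genes were lower by a median of 0.74 on the log2 scale. Of the 7 measured genes, 6 had changes of -0.80 to -0.65. Ebp stood apart from them at -0.11. Hsd17b7, Sc5d and Cyp51 passed the test. In bulk RNA a lower signal from each cell and a shift in the mix of cells cannot be told apart. These are 3 of 7 genes called lower, where 2.52% of all 8927 genes were. The median change of all genes was 0.02, and 11.4% of them were lower at an unadjusted p under 0.05, against 6 of the 7 members. The siTARBP2-2 array was below every control array for 7 of the 7 members, where 32.1% of all genes were. With siTARBP2-1 the median of the members was -0.32, against -0.01 over all genes, and 0 of 7 passed the test, where 3.78% of all genes were called lower. At an unadjusted p under 0.05 limma gave 3 of the 7 with siTARBP2-1, namely Cyp51, Nsdhl and Dhcr7, against 12.3% of all genes. The siTARBP2-1 array was below every control array for 5 of the 7, where 35.6% of all genes were. Both comparisons share the control arrays, so their values stand side by side and were not correlated. The range of the 6 genes other than Ebp depended on the processing. With the authors' series matrix values and siTARBP2-2 it was wider, from -0.78 for Hsd17b7 to -0.50 for Sc5d. Sc5d and Nsdhl were dim. Their raw signals were 125.4 to 189.1 and, for the brightest Nsdhl probe, 140.8 to 249.9, against array medians of 79.0 to 81.9.

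Each siRNA is a single array, and its test rests on the spread of the 3 control arrays. The 3 calls with siTARBP2-2 became 0 when siControl-2 was left out, 5 without siControl-1, 1 with no filter on dim probes and 6 with the authors' series matrix values. The share of all genes called in either direction moved with them, at 4.27% in the fit above, 0.639% without siControl-2, 5.61% without siControl-1, 0.5% with no filter and 10.7% with the series matrix values. The 0 calls with siTARBP2-1 became 1 without siControl-1 and 1 with the series matrix values, where the share of all genes was 8.95% and 13.7%, against 7.65% in the fit above.

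**Figure D1:**
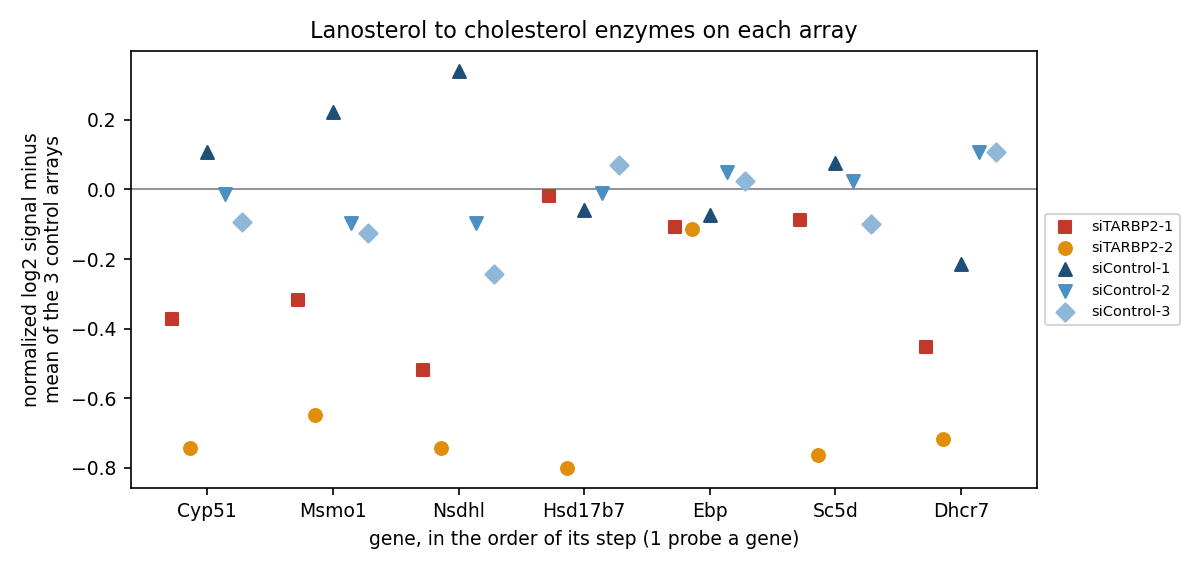
Normalized log2 signal of each measured gene on each of the 5 arrays, minus the mean of its 3 control arrays, with siRNA arrays left of the control arrays. The siTARBP2-2 array lies below all control arrays for the 7 genes and the siTARBP2-1 array for 5 of them, with Hsd17b7 and Sc5d as the exceptions.

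Cyp51, the lanosterol demethylase, had a log2 signal of 11.13 with siTARBP2-1 and 10.76 with siTARBP2-2, against 11.61, 11.49 and 11.41 on the control arrays. Both siRNA arrays were below the lowest control array, and siTARBP2-2 was the lower one. With siTARBP2-2 it fell to 59.8% of control (-0.74, SE 0.12; limma, adjusted p = 0.0307). With siTARBP2-1 it had 77.2% of control (-0.37, SE 0.12; limma, adjusted p = 0.124), which did not pass. With siTARBP2-1, Cyp51 passed with the authors' series matrix values (-0.36; limma, adjusted p = 0.036).

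For the reductase step that follows, Tm7sf2 gave no usable level. Its raw signal was 78.5 and 78.7 with the TARBP2 siRNAs, against 75.5, 87.6 and 76.7 on the control arrays. It was above background on siControl-2 alone, and no fold change is given. Lbr, the nuclear membrane protein with the same reductase activity, had 11.44 and 11.69 with siTARBP2-1 and siTARBP2-2, against 11.69, 11.54 and 11.68 on the control arrays. The groups overlapped, and neither siRNA passed the test for Lbr (-0.19 and 0.06; limma, adjusted p = 0.367 and 0.813).

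The genes of the demethylation complex at the next steps were Msmo1, Nsdhl and Hsd17b7. Msmo1, the methyl sterol oxidase, had 11.69 with siTARBP2-1 and 11.36 with siTARBP2-2, against 12.23, 11.91 and 11.88 on the control arrays. Both siRNA arrays were below the controls, among which siControl-1 was high. Its change was -0.65 with siTARBP2-2 (SE 0.16; limma, adjusted p = 0.075) and -0.32 with siTARBP2-1 (SE 0.16; adjusted p = 0.277), and neither passed. With siTARBP2-2, Msmo1 passed with the series matrix values (-0.64; limma, adjusted p = 0.00988) and without siControl-1 (-0.54; adjusted p = 0.0487).

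Nsdhl, the sterol dehydrogenase, was measured by 4 probes. The brightest of them, ILMN_2725402, had 6.68 and 6.46 with siTARBP2-1 and siTARBP2-2, against 7.54, 7.10 and 6.96 on the control arrays. The siRNA arrays were lower than every control array, and the controls themselves spread by an SD of 0.304 (n = 3), the widest of the 7 genes. The change of this probe was -0.74 with siTARBP2-2 (limma, adjusted p = 0.106) and -0.52 with siTARBP2-1 (adjusted p = 0.201), and neither passed. The dimmest probe, ILMN_2958207, had 5.80 and 5.54 with the siRNAs, against 6.57, 6.27 and 6.26 on the control arrays. It fell by 0.83 with siTARBP2-2 (SE 0.15; limma, adjusted p = 0.0393), so whether Nsdhl passed depended on the probe. With siTARBP2-1 this probe had -0.56 (SE 0.15; adjusted p = 0.0776). The other 2 probes had -0.79 and -0.61 with siTARBP2-2 and did not pass. All 4 probes had siTARBP2-2 lowest and siControl-1 highest, and 3 of the 4 had no overlap between the groups. In ILMN_2594521 the siTARBP2-1 array (6.68) lay above siControl-2 (6.62). The probes read the same RNA samples and are not replicates.

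**Figure D2:**
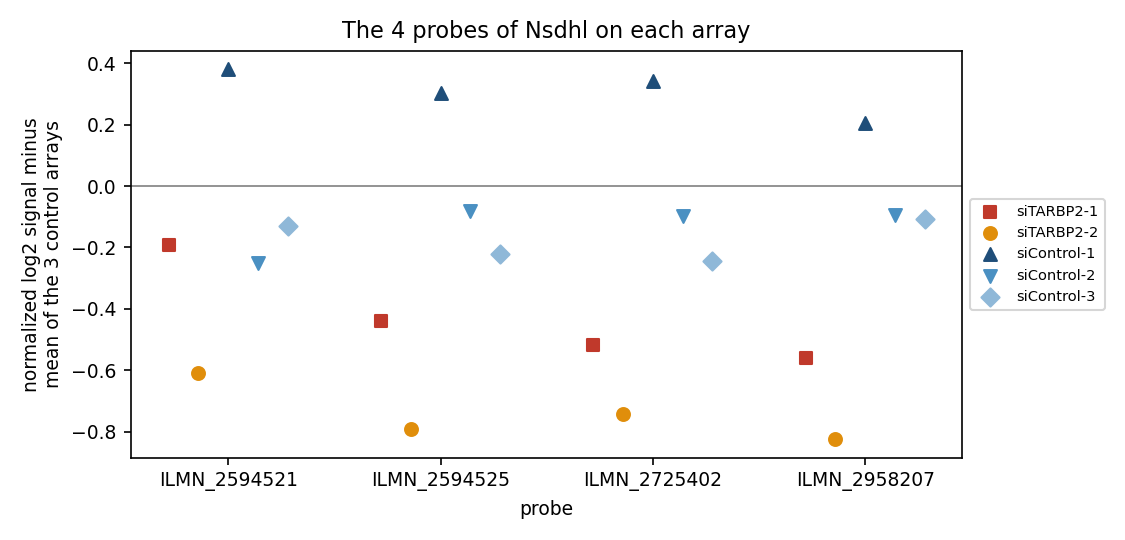
Normalized log2 signal of the 4 Nsdhl probes on each array, minus the mean of the 3 control arrays of the same probe. The siTARBP2-2 array is the lowest for every probe and siControl-1 the highest, and the siTARBP2-1 array overlaps the controls in ILMN_2594521 alone.

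Hsd17b7, the ketoreductase that ends the removal of methyl groups, had 11.79 with siTARBP2-1 and 11.01 with siTARBP2-2, against 11.75, 11.80 and 11.88 on the control arrays. The siTARBP2-1 array lay among the controls and the siTARBP2-2 array well below them. With siTARBP2-2 it fell to 57.3% of control (-0.80, SE 0.12; limma, adjusted p = 0.0225). With siTARBP2-1 the change was -0.02, with a 95% interval of -0.30 to 0.25 (adjusted p = 0.926), and it turned to 0.01 without siControl-3.

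The ring steps are those of Ebp, Sc5d and Dhcr7. Ebp, the sterol isomerase, had 9.03 on both siRNA arrays, against 9.07, 9.19 and 9.17 on the control arrays. The siRNA arrays were just below the lowest control, by less than the SD of the controls (0.0643, n = 3). Its change was -0.11 with either siRNA, with 95% intervals of -0.38 to 0.16 for both, and it did not pass (limma, adjusted p = 0.611 with siTARBP2-1 and 0.602 with siTARBP2-2). Ebpl, an Ebp-like gene, had 10.93 and 10.55 with siTARBP2-1 and siTARBP2-2, against 10.62, 10.66 and 10.68 on the control arrays, and also did not pass with either.

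Sc5d, the sterol desaturase, had 6.85 with siTARBP2-1 and 6.18 with siTARBP2-2, against 7.02, 6.96 and 6.84 on the control arrays. The siTARBP2-1 array was within the control range and the siTARBP2-2 array below it, as for Hsd17b7. With siTARBP2-2 Sc5d fell to 59.0% of control (-0.76, SE 0.12; limma, adjusted p = 0.0274), and with siTARBP2-1 it had -0.09 (95% interval -0.37 to 0.20; adjusted p = 0.704).

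Dhcr7, the reductase of the last ring step, had 7.95 with siTARBP2-1 and 7.69 with siTARBP2-2, against 8.19, 8.51 and 8.52 on the control arrays. Both siRNA arrays were below the controls, and here siControl-1 was the low control. Its change was -0.72 with siTARBP2-2 (60.8% of control, SE 0.16; limma, adjusted p = 0.0548) and -0.45 with siTARBP2-1 (73.0%, SE 0.16; adjusted p = 0.137), and neither passed. Without siControl-1 both passed, at -0.82 with siTARBP2-2 (limma, adjusted p = 0.0238) and -0.56 with siTARBP2-1 (adjusted p = 0.0331).

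**Figure D3:**
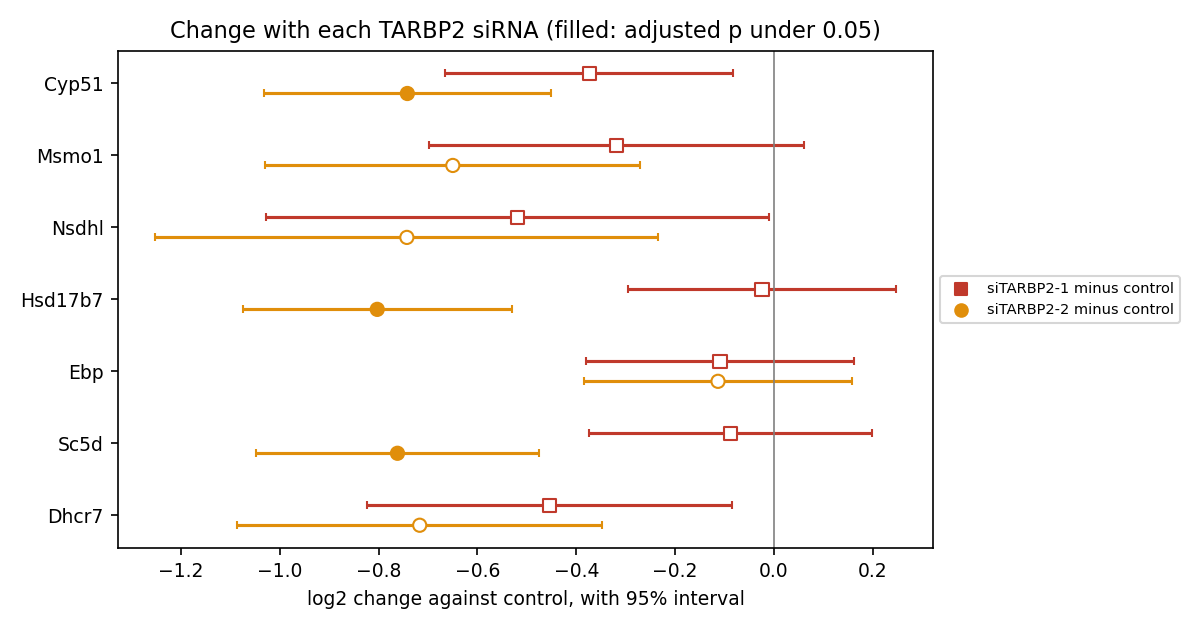
Log2 change of each measured gene against the 3 control arrays with siTARBP2-1 (square, upper) and siTARBP2-2 (circle, lower), with 95% intervals from limma. Filled symbols passed the test, which were Cyp51, Hsd17b7 and Sc5d with siTARBP2-2.

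Between the siTARBP2-1 and siTARBP2-2 arrays, Hsd17b7 and Sc5d passed the test of the difference. With 1 array for each siRNA, a difference between the siRNAs and one between these arrays cannot be told apart. Hsd17b7 was higher with siTARBP2-1 than with siTARBP2-2 by 0.78 (SE 0.14; limma, adjusted p = 0.0253) and Sc5d by 0.67 (SE 0.15; adjusted p = 0.0449). That is 2 of 7 members called, where 3.72% of all genes were higher with siTARBP2-1. For the other 5 the difference did not pass, and the intervals leave room for sizeable differences in most of them. It was 0.37 for Cyp51 (95% interval 0.01 to 0.72; limma, adjusted p = 0.188), 0.33 for Msmo1 (-0.13 to 0.80), 0.22 for Nsdhl (-0.40 to 0.85), 0.26 for Dhcr7 (-0.19 to 0.72) and 0.01 for Ebp (-0.33 to 0.34). The 7 differences had a median of 0.33, against -0.02 over all genes. The 7 measured enzymes from mevalonate to lanosterol had a median difference of 0.36, and 0 of them passed the test. In each of these lists 0 of 7 differences were negative, where 52.7% of all genes were. Without siControl-2 neither Hsd17b7 nor Sc5d passed (limma, adjusted p = 0.068 and 0.103), and Sc5d also did not with median scaling (0.56; adjusted p = 0.0926).

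Over both siRNAs together 0 of 7 members passed the limma test, where 0.0112% of all genes were called lower, and 4 of the 7 (Cyp51, Msmo1, Nsdhl and Dhcr7) had an unadjusted p under 0.05, against 6.03% of all genes lower. The median change was -0.48, against 0.00 over all genes. The changes ran over Nsdhl at -0.63, Dhcr7 at -0.59, Cyp51 at -0.56, Msmo1 at -0.48, Sc5d at -0.43, Hsd17b7 at -0.41 and Ebp at -0.11. Both siRNA arrays were below every control array for 5 of the 7 genes, where 15.1% of all genes were. Nsdhl had an SE of 0.19 (limma, adjusted p = 0.257) and did not pass. In the authors' deposited table, which gives 1 log2 fold change a gene for knockdown against control, all 8 members were negative, with a median of -0.32 against 0.00 over its 18744 accessions. The table belongs to the same series and is not a separate experiment. There Cyp51 had -0.55, Msmo1 -0.48, Hsd17b7 -0.41, Dhcr7 -0.39, Nsdhl -0.24, Sc5d -0.17 and Ebp -0.09. Tm7sf2, which was not above background here, had -0.01. The authors' deposited table marked 0 of the 8 as higher, where 8.67% of its accessions were, so 0 of 8 is close to that share. Its direction was taken from its Pearson correlation of 0.917 across 16632 accessions, which are not independent replicates, with the log2 ratio of the series matrix.

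The controls were not level for these genes. siControl-1 was the highest control array for 4 of the 7 members (Cyp51, Msmo1, Nsdhl and Sc5d) and the lowest for Hsd17b7, Ebp and Dhcr7. Its median deviation from the control mean over the members was 0.08, against -0.01 for siControl-2 and -0.09 for siControl-3. The medians of the siRNA arrays on the same scale were -0.32 for siTARBP2-1 and -0.74 for siTARBP2-2, both beyond the control range.

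Set beside the members, the enzymes from mevalonate to lanosterol had medians against control closer to 0. Their median difference between the siRNA arrays was like that of the members (0.36 and 0.33). Of 7 measured, 1 fell with siTARBP2-2, namely Fdps, the farnesyl diphosphate synthase (-0.74; limma, adjusted p = 0.0399), and 0 with siTARBP2-1, where 2.52% and 3.78% of all genes were called lower. At an unadjusted p under 0.05 limma gave 5 of the 7 lower with siTARBP2-2, against 6 of the 7 members and 11.4% of all genes. With siTARBP2-1 it gave 0, where 12.3% of all genes were lower. The medians of these enzymes were -0.45 with siTARBP2-2 and -0.19 with siTARBP2-1. All 7 were below every control array with siTARBP2-2, where 32.1% of all genes were. The squalene epoxidase Sqle had -0.49 with siTARBP2-2 (limma, adjusted p = 0.0674), and the isomerase Idi1 had -0.35 (adjusted p = 0.289). No test was made of the difference between the lists.

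Among genes that control the pathway or take up sterol, 0 of 7 measured passed the limma test with either siRNA. Of all genes 7.65% passed with siTARBP2-1 and 4.27% with siTARBP2-2. At an unadjusted p under 0.05, 1 of the 7 was lower with siTARBP2-2, close to the share of all genes (11.4%). With siTARBP2-1 there was 1 higher, where 2205 of all 8927 genes had such a p in either direction. Insig1, which holds the SREBP precursor in the endoplasmic reticulum and is itself a known SREBP target, had 10.33 and 9.67 with siTARBP2-1 and siTARBP2-2, against 10.14, 10.37 and 10.64 on the control arrays. It was lower than the controls with siTARBP2-2 alone (-0.71; limma, adjusted p = 0.0845). Insig2, its relative, was above every control array with both siRNAs, at 10.68 and 10.43 against 10.33, 10.25 and 10.20 (0.42 with siTARBP2-1; limma, adjusted p = 0.0798). Srebf2, which encodes SREBP2, had 8.20 and 8.23 with siTARBP2-1 and siTARBP2-2, against 8.16, 8.67 and 8.72 on the control arrays, and the groups overlapped at siControl-1. Of the sterol efflux genes 2 were measured and 0 passed, with Abcg1, a sterol exporter, at 0.17 and Nr1h3, an oxysterol receptor, at -0.48 with siTARBP2-2 (limma, adjusted p = 0.632 and 0.0939).

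Fatty acid genes known to respond to SREBP1 had 4 of 8 measured members called lower with siTARBP2-2 and 2 of 8 with siTARBP2-1, where 2.52% and 3.78% of all genes were. At an unadjusted p under 0.05 limma gave 5 and 4 of the 8 lower, against 11.4% and 12.3% of all genes. Fads2, a fatty acid desaturase, had 6.89 and 6.21 with siTARBP2-1 and siTARBP2-2, against 7.36, 7.28 and 7.15 on the control arrays. It fell by 1.05 with siTARBP2-2 (limma, adjusted p = 0.015) and differed between the siRNA arrays by 0.68 (adjusted p = 0.049). Elovl6 and Scd2 were called lower with both siRNAs and Scd1 with siTARBP2-2. The Scd1 change with siTARBP2-1 was -0.06, close to those of Hsd17b7 and Sc5d on that array, and the difference of Scd1 between the siRNA arrays passed (0.77; limma, adjusted p = 0.0254).

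**Figure D4:**
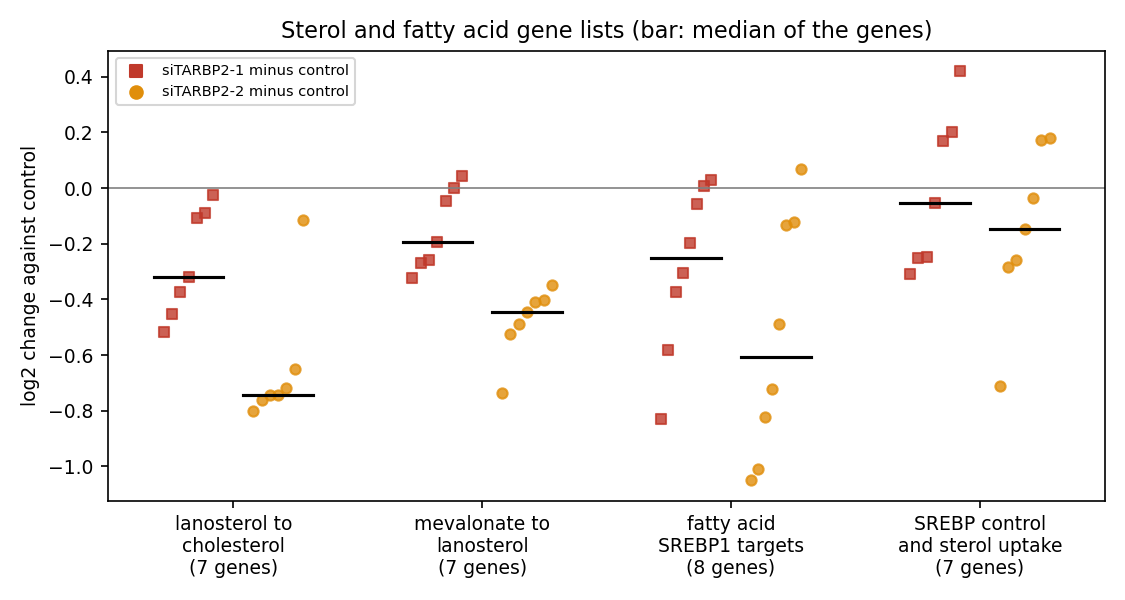
Log2 change of each measured gene against control, with siTARBP2-1 (squares, left of each pair) and siTARBP2-2 (circles, right), for the 7 members and for the other lists; bars are medians. The members have medians of -0.32 and -0.74, and the mevalonate to lanosterol genes -0.19 and -0.45.

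Redox partners of the sterol enzymes had 1 gene of 4 called lower with siTARBP2-1 and 0 with siTARBP2-2 (limma). Of all genes 3.78% and 2.52% were called lower. At an unadjusted p under 0.05 the counts were also 1 and 0, against 12.3% and 11.4% of all genes lower. Cyb5b, a cytochrome of the mitochondrial outer membrane, had 12.27 and 12.76 with siTARBP2-1 and siTARBP2-2, against 13.07, 12.93 and 12.97 on the control arrays, and fell by 0.72 with siTARBP2-1 (limma, adjusted p = 0.0175). Its relative in the endoplasmic reticulum, Cyb5a, had 0.17 with siTARBP2-1 and -0.15 with siTARBP2-2, and Pgrmc1, which binds cytochromes P450, had 0.03 and -0.18. Cyb5r3, the reductase of cytochrome b5, had 0.13 and -0.22, and none of these 3 passed with either siRNA.

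The genes other than the members whose values over the 5 arrays were most like the mean profile of the 7 members were Fcgrt, Fermt2, Sema3a, Eloc and Aldh4a1. Likeness was the root mean square distance between values centred on each gene's mean, in log2 units. It was 0.0242 for Fcgrt, 0.0294 for Fermt2, 0.0302 for Sema3a, 0.0401 for Eloc and 0.0403 for Aldh4a1. Of the members, Cyp51 was the nearest to that mean profile (0.056) and Ebp the farthest (0.219). Fcgrt had -0.32 with siTARBP2-1 and -0.65 with siTARBP2-2, and Sema3a -0.31 and -0.70.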

How the data were processed

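Total RNA was profiled on 1-colour Illumina BeadChips with biotin label, per the labels' protocols. The authors deposited non-normalized signal intensity and detection p-value columns for 5 arrays and 25697 probes, and a series matrix of normalized intensity, both on a linear scale; the submitters' processing notes name lumi, and the sources used here do not describe other steps. The authors' deposited table gives a log2 fold change for each accession and a score of 1 for those marked higher.

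The deposited detection p-value column beside siTARBP2-2 did not follow its signal (Spearman correlation 0.000598, against -0.961 to -0.967 on the other 4 arrays). Its values were exchanged for those at the same signal rank on the other 4 arrays, averaged. Signals went through neqc of limma 3.58.1 (R 4.3.3, offset 16). The filter was detection p under 0.05 on 2 arrays or more, which left 13123 probes naming 8927 genes. A gene was represented by its probe with the highest mean. The platform annotation gave 23978 probes 1 symbol, 0 several and 1719 none.

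Knockdown was compared with control by limma's lmFit and eBayes, two-sided, in a fit over both siRNAs and in a fit with a coefficient for each siRNA, whose spread comes from the control arrays. Nothing says that arrays are separate cultures, so the spread behind each p-value is that between these samples and may be technical. The number of arrays limits the precision. The fits were tested on simulated data with the same shift on both siRNA arrays, larger than the member changes here. That test does not cover changes of the size seen in the members, or ones that differ between the siRNAs. Alternatives were background correction, scaling, filter, probe choice, series matrix values, the detection p-values as deposited, each array left out and the replicate number as a block. Members and lists were chosen with earlier results of these data known. The named genes were all members with every probe, Tarbp2, list genes called in any contrast and the 5 genes most like the mean member profile. Up to 3 genes of each list with the widest change over both siRNAs were also named. Cyb5a, Col1a2, Vim and the epithelial markers were named after their values were seen. A comparison of protein sequences was not made.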

Additional observations from a re-analysis of the deposited data

Results flagged for a closer look

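Hsd17b7 and Sc5d stood out because their effects differed between the siRNA arrays by the test of the difference itself. As siTARBP2-1 minus siTARBP2-2, Hsd17b7 differed by 0.78 (limma, adjusted p = 0.0253) and Sc5d by 0.67 (adjusted p = 0.0449), with 1 array for each siRNA.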

How the results depend on the processing

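Over both siRNAs, 0 of 7 members passed under every alternative that kept both siRNAs. The count ran from 0 to 3, and the median change from -0.74 to -0.32, when 1 array was left out, with -0.74 and 3 calls without siTARBP2-1. With the replicate number as a block the median was -0.53 and 0 passed, where 0 had passed without it, and the call of Tarbp2 ended (limma, adjusted p = 0.164). As siControl-3 is alone in its block, the changes were those of the fit without siControl-3, and the block is not a separate check. Same-numbered siRNA and control arrays did not deviate together across genes (Pearson correlation -0.0584 and -0.0216 over 8927 genes, which are not independent replicates), and no label ties them.

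With siTARBP2-1 the count was 1 in place of 0 with normexp and an offset of 50, with no background correction, with median scaling and with the series matrix values, and 0 to 1 with a control array left out. The median was -0.43 with median scaling, where the median over all genes moved to -0.12, and -0.21 with no filter, where Tm7sf2 enters. It ran from -0.38 to -0.21 with a control left out. Hsd17b7 had -0.055 to 0.01 with a control left out, the positive value being without siControl-3.

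With siTARBP2-2 the count of 3 was 6 with normexp, with no background correction and with the series matrix values, where the medians were -0.60 and the share of all genes called was 10.7% in place of 4.27%. It was 4 with median scaling (5.19% of all genes) and with detection on all 5 arrays (7.23%), 5 with the deposited detection p-values (5.7%), 1 with no filter (0.5%), and 0 to 5 with a control left out, 0 being without siControl-2 (0.639%). The filter with the deposited detection p-values alone, added after seeing the data, left 3. Between the siRNAs the count was 2, with 7.06% of all genes called in either direction. It was 1 with median scaling (10% of all genes), where the median was 0.19, with -0.15 over all genes. The count was 1 with no filter (2.3%), and 0 to 2 with a control left out (2.97% to 10.4%). In this comparison Ebp turned to -0.18 with median scaling.

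Of 408 values of single genes under the alternatives, members and Tarbp2, 367 kept their direction and side of the threshold, 24 newly passed, 15 no longer passed and 2 turned. The calls lost with no filter come with more probes tested. The cause of those lost without siControl-2, and other causes, were not tested. Probes near background, such as Tm7sf2, limit what can be measured.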
